A study of Mus musculus with 26 samples.

Results

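The genes of the TEAD and YAP pathway were followed through 5 experiments in the degenerating mouse retina, in which inhibitors of enzymes that write or erase chromatin marks were given. The set has 9 members among the 37991 genes of the table of counts: the DNA-binding factors Tead1, Tead2, Tead3 and Tead4, the coactivators Yap1 and Wwtr1 (the latter encodes the protein TAZ), and the target genes Ctgf, Cyr61 and Amotl2. They were chosen by symbol, with earlier results of these data known, and their values below describe the set rather than test a choice made blind. The only measured value in the rule is the mean count, which decided between 2 identifiers for Tead1. The second of these had no count in any library. With Romidepsin, Tead3 rose 2.87-fold (log2 1.52 ± 0.16 SE, 3 against 3 libraries) and Cyr61 3.56-fold (log2 1.83 ± 0.28), which made 2 of 9 members past an adjusted p of 0.05, where 0.748% of all genes tested were. With DZNep, Tead3 rose 1.47-fold (log2 0.55 ± 0.08, 4 controls and 2 treated) and Ctgf fell by 0.53 ± 0.09 on the log2 scale, again 2 of 9 members, where 22.7% of all genes passed. No member passed with UNC1999, UNC0642 or, in sorted rods, GSK2879552, where 0.602%, 0% and 0% of the genes tested did.

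All mice carried the rd10 mutation (genotype B6.CXB1-Pde6brd10/Jrd10), a change in Pde6b, which encodes a subunit of the phosphodiesterase of rods, and the rods of these mice die in the weeks after birth. Whole retinas were collected at postnatal day (PN) 24, after injections from PN9 of the HDAC inhibitor Romidepsin (3 control and 3 treated libraries), the G9A/GLP inhibitor UNC0642 (2 and 2), the EZH2 inhibitor DZNep (4 and 2) or the EZH2 inhibitor UNC1999 (3 and 3). In the fifth experiment, green fluorescent rods were sorted by flow cytometry at PN24 from mice of a cross of rd10 with B6.Cg-Tg(Nrl-EGFP)1Asw/J, in which the Nrl promoter drives the marker in rods, after injection of saline or of the LSD1 inhibitor GSK2879552 from PN9 (2 and 2). Controls received saline according to the labels, but UNC1999 was dissolved with further solvents and whether its controls received these is not settled by the sources used here. DZNep was given daily at first and every second day later; the libraries of sorted rods were made with another kit than those of whole retina. No mice without the rd10 mutation were analysed here, so none of the changes below can be set against a healthy retina.

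YAP and TAZ are coactivators with no DNA-binding domain of their own. When the kinases of the Hippo pathway are inactive they enter the nucleus and join TEAD factors on DNA, and Ctgf, Cyr61 and Amotl2 are among the genes most often used to read out this activity. In the retina YAP is known chiefly from Müller glia and from the retinal pigment epithelium (RPE), and rods make up most of the cells of the healthy mouse retina.

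TEAD factors recognise the letters GGAATG, or CATTCC on the other strand. The stretches before the transcription start show where these letters lie in members whose counts are compared below. RefSeq promoters on GRCm38.p6, each with 250 bases before and 50 after a start, were found for 6 of the 9 members. Tead1, Tead4 and Ctgf had no entry. GGAATG lay in at least 1 entry of 5 of these 6 genes, all but Tead2, against 16.6% of the 27025 genes with a promoter entry. Tead3 and Wwtr1 had more than 1 entry, with overlapping windows. Counted by entry, 7 of the 9 entries of members held a match, against 14.7% of all 32851 entries. The 250 bases before the most upstream start of the 5 genes follow, 5′ to 3′ on the strand of the gene, with the match in capitals.
Cyr61, chr3:145649986-145650235, minus strand: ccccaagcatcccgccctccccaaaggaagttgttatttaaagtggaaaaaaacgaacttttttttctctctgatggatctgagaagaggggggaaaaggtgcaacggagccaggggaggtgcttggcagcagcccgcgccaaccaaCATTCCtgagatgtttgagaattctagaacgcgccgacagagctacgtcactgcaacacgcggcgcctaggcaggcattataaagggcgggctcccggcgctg
Amotl2, chr9:102717554-102717803, plus strand: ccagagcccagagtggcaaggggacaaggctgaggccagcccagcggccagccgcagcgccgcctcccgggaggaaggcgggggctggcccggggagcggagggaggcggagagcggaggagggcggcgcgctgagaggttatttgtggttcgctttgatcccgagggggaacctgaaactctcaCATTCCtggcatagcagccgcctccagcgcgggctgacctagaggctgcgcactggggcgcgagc
Tead3, chr17:28350806-28351055, minus strand: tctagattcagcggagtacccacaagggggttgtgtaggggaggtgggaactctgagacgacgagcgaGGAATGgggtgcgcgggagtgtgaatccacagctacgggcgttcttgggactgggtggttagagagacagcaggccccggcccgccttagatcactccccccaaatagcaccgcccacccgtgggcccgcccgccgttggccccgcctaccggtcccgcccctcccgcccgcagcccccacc
Wwtr1, chr3:57575911-57576160, minus strand: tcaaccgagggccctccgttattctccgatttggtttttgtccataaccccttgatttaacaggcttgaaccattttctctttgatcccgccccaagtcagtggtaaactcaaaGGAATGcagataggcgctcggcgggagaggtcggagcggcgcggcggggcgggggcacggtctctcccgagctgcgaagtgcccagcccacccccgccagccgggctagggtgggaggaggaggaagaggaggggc
Yap1, chr9:8004597-8004846, minus strand: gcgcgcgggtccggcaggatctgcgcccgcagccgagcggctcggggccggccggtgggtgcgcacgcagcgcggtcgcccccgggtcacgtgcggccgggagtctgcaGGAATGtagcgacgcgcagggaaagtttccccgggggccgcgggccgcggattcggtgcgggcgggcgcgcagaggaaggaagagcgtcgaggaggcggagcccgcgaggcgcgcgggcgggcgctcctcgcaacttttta
The first base of the match lay 103 bases before the start of Cyr61, 65 before that of Amotl2, 182 before that of Tead3, 136 before that of Wwtr1 and 141 before that of Yap1. A second, downstream start of Tead3 had 3 matches in its window, 123 and 114 bases before the start and at 2 bases after it. No member entry held the AP-1 letters TGACTCA, which 5.95% of genes did, or a CArG box, the site of serum response factor, which 1.81% did. A match of letters does not show that a factor binds there, and binding was not measured here.

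Libraries of whole retina held 13732959 to 36354094 counted reads and libraries of sorted rods 7289460 to 19864491. Values are given in CPM, the count of a gene scaled to the size of its library, and 3 counts, taken as the floor, correspond to 0.0825 to 0.218 CPM in retina and 0.151 to 0.412 CPM in sorted rods. Among the retina libraries, treated replicate 2 of the Romidepsin experiment stood apart: its genes with over 8000 exon bases were 0.737 lower on the log2 scale, relative to genes with under 2000 exon bases, than the controls of its experiment, while this balance ran from -0.394 to 0.158 in the other 21 retina libraries. Summed over 11 markers, rod transcripts were at 5814 to 20160.1 CPM in control retinas and at 40068 to 60922 CPM in control sorted rods. Those of Müller glia were at 5612 to 11719 CPM in control retinas and 334 to 470 CPM in control sorted rods, where none of the 12 was at 0 in all 4 libraries. In the same order, bipolar and amacrine cell markers were at 2441 to 3626 and 593 to 790 CPM. Gliosis markers were at 739 to 4031 and 393 to 516 CPM, and microglial markers at 249 to 987 and 63.4 to 77.6 CPM. Endothelial markers were at 543 to 989 and 51.4 to 56.0 CPM, and those of pericytes and smooth muscle at 160 to 322 and 11.8 to 16.3 CPM. Of the 12 RPE markers, Rpe65 and Ttr had no count in any library of sorted rods. The whole RPE list summed to 93.2 to 210 CPM in control retinas and 12.8 to 14.2 CPM in control sorted rods.

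In control retinas, the targets had higher mean levels than the TEAD genes when given per kilobase of exon (RPKM), but Cyr61 lay below the coactivator Wwtr1. Over the 12 control libraries, Ctgf, which encodes a secreted matricellular protein, was at 29.7 ± 8.71 RPKM (mean ± SD, n = 12) and Amotl2, an angiomotin-like protein that binds YAP, at 11.6 ± 0.769 RPKM. Wwtr1 was at 7.76 ± 2.09 RPKM, Cyr61, a secreted relative of Ctgf, at 6.29 ± 2.04 RPKM and Tead3 at 5.13 ± 1.40 RPKM. Yap1 was at 4.00 ± 0.610 RPKM, Tead2 at 3.34 ± 0.748 RPKM, Tead1 at 2.29 ± 0.518 RPKM and Tead4 at 0.159 ± 0.0647 RPKM. Each gene in this order overlapped with its neighbour in the range of its libraries, except that Tead4, whose highest library was at 0.271 RPKM, lay below the lowest of Tead1 at 1.44 RPKM. Tead3 thus had the highest mean level per length of the TEAD genes, and of the coactivators Wwtr1, at 5.06 to 11.6 RPKM, lay above Yap1, at 3.26 to 4.91 RPKM, with no overlap. The exons of Tead1 overlap those of its second identifier by 3846 bases. Reads there may have gone uncounted, which would make its level too low, so its place below Tead2 is not settled.

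Sorted rods kept some members and nearly lacked others. In the 2 control libraries, Wwtr1 was at 12.8 and 15.7 RPKM and Amotl2 at 12.4 and 14.1 RPKM, Wwtr1 above all 12 control retinas and Amotl2 at the top of their range. Tead3 was at 2.84 and 3.80 RPKM, at the lower end of its range in retina. Cyr61 was at 1.32 and 1.59 RPKM and Ctgf at 0.483 and 1.67 RPKM, below all 12 control retinas. Tead1 was at 0.155 and 0.172 RPKM, Tead2 at 0.0573 and 0.100 RPKM and Yap1 at 0.0289 and 0.0949 RPKM, the last from 2 and 15 reads. Tead4 had no read in any of the 4 libraries of sorted rods, which allows up to the floor of 0.151 to 0.412 CPM. Because the kits differed, and because sorted rods come from other mice, these levels are given side by side without a test. Markers of other cell types were also counted in the sorted rods, and their part in these levels was not tested.

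**Figure D1:**
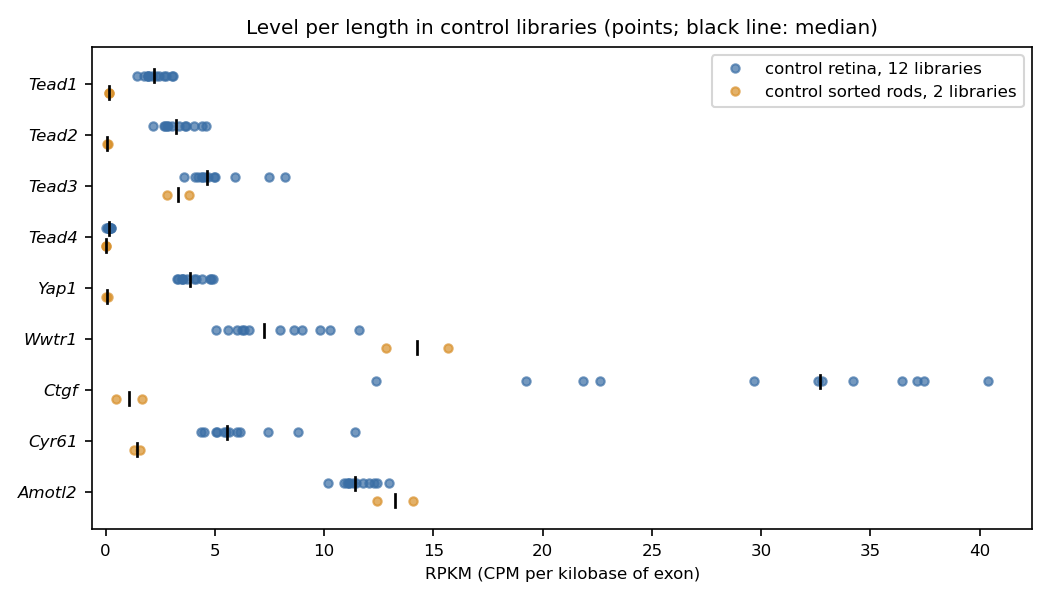
Level per kilobase of exon (RPKM, horizontal axis) of the 9 genes in the 12 control retinas (blue) and the 2 control libraries of sorted rods (orange), each point a library and each black line a median. Wwtr1 lay above and Amotl2 and Tead3 near their range in retina in sorted rods, whereas Yap1, Tead1, Tead2, Ctgf and Cyr61 were lower there than in every control retina.

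The control retinas of the 4 experiments were not alike for Tead3. It was at 36.1 and 32.9 CPM in the controls of the UNC0642 experiment and between 15.7 and 26.1 CPM in the other 10 control retinas. The same 2 controls had the lowest summed rod markers, 5814 and 5995 CPM, and the highest summed markers of gliosis, 3382 and 4031 CPM. Their part in the level of Tead3 was not tested. In what follows each treatment is compared with the controls of its own experiment, in CPM scaled with TMM factors.

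**Figure D2:**
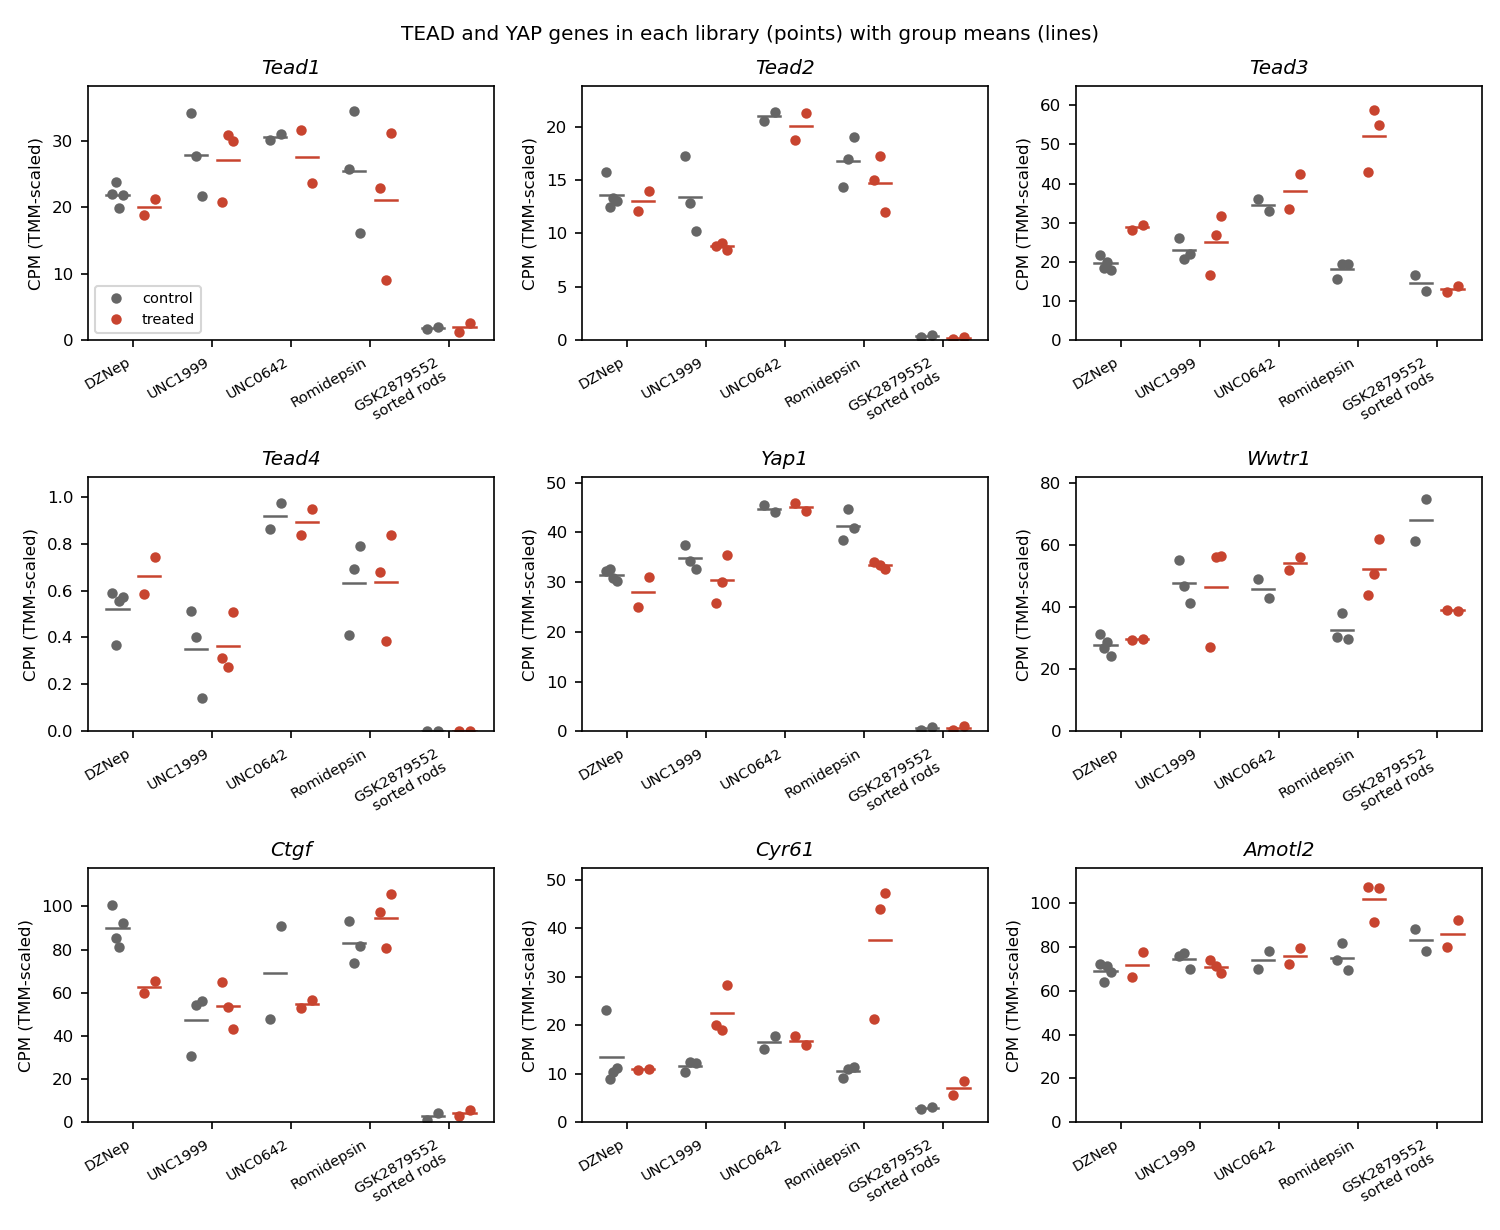
CPM (vertical axes, from 0) of the 9 genes in every library, with controls in grey, treated libraries in red and a line at each group mean, for the 5 experiments. Tead3 and Cyr61 rose clear of their controls with Romidepsin, Cyr61 lay above its controls with UNC1999 without passing the test, and most other groups overlapped.

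TEAD3 is 1 of the 4 factors of the family that bind the same letters, and its gene lies at chr17:28468616-28487750 (NCBIM37, minus strand, ENSMUSG00000002249). With Romidepsin, Tead3 was at 15.7, 19.3 and 19.5 CPM in the controls and at 43.0, 58.9 and 54.8 CPM in the treated retinas. All treated libraries lay above all controls. The means, 18.2 ± 2.11 (SD, n = 3) and 52.2 ± 8.27 CPM (n = 3), were 2.87-fold apart (log2 1.52 ± 0.16 SE, adjusted p = 0.0269 in edgeR's quasi-likelihood test). Without control replicate 2, control replicate 3 or treated replicate 3 the adjusted p was 0.120, 0.112 or 0.124, with log2 fold changes of 1.57, 1.57 and 1.49.

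Tead3 also rose with DZNep, from 21.9, 18.5, 20.02 and 18.0 CPM in the controls to 28.2 and 29.3 CPM. Both treated libraries were above all 4 controls, by 1.47-fold between means of 19.6 ± 1.73 (n = 4) and 28.8 ± 0.766 CPM (n = 2), with a log2 fold change of 0.55 ± 0.08 and an adjusted p of 0.00274. When all 22 retina libraries shared 1 fit, the adjusted p was 0.0663, and against all 9 control retinas of the same library series it was 0.283. With UNC1999 (26.1, 20.7 and 22.1 CPM in controls, 16.7, 26.9 and 31.7 CPM in treated retinas), with UNC0642 (36.1 and 32.9 CPM in controls, 33.5 and 42.5 CPM in treated retinas) and with GSK2879552 in sorted rods (16.7 and 12.5 CPM in controls, 12.3 and 13.9 CPM in treated rods) the groups overlapped and the test was not passed.

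Tead1, at chr7:119822832-120050319 (plus strand, ENSMUSG00000055320), passed in no experiment. Its log2 fold changes ran from -0.27 with Romidepsin to 0.07 with GSK2879552 in sorted rods. With Romidepsin it varied more within the groups than between them, at 25.8, 34.5 and 16.2 CPM in controls and 22.9, 9.10 and 31.2 CPM in treated retinas. Its lowest library was treated replicate 2, the one in which long genes were low, and Tead1 is the longest member, with 11235 exon bases. The next lowest, control replicate 3, had the second-lowest balance of long and short genes in that experiment, at -0.298. Without treated replicate 2 the log2 fold change of Tead1 was 0.09. The part of the balance in the level of Tead1 was not tested. The exons of Tead1 overlap those of its second identifier on the same strand by 3846 bases, and reads there may have gone uncounted.

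**Figure D3:**
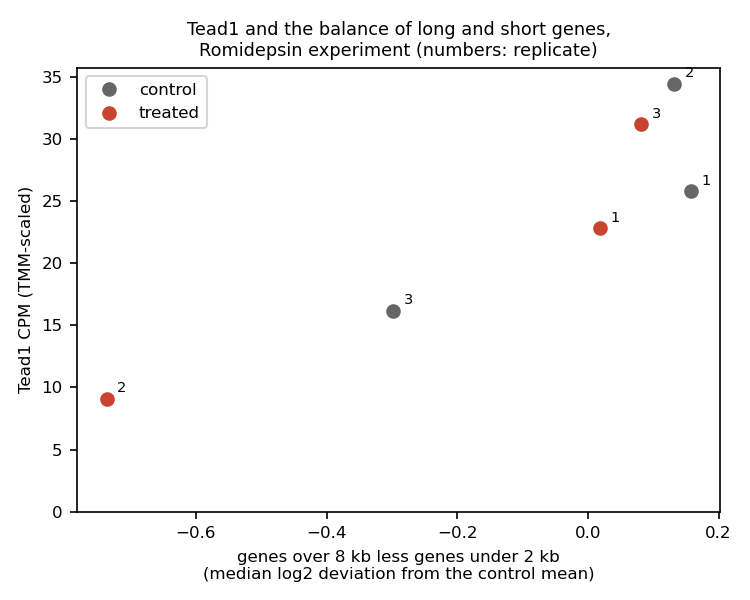
Tead1 in CPM (vertical axis, from 0) against the balance of long and short genes (horizontal axis, log2) in the 6 retinas of the Romidepsin experiment, controls in grey and treated in red, numbered by replicate. Tead1 was lowest, at 9.10 CPM, in treated replicate 2, where the balance was -0.737.

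Tead2, at chr7:52471123-52489005 (plus strand, ENSMUSG00000030796), was lower with UNC1999 in every library, at 17.2, 12.8 and 10.2 CPM in controls and 8.82, 9.14 and 8.45 CPM in treated retinas. The groups did not overlap, but the log2 fold change of -0.61 ± 0.19 had an adjusted p of 0.106. DESeq2 gave an adjusted p of 0.0404 for it, and without control replicate 3 the quasi-likelihood test gave 0.0129. Its log2 fold changes with the other treatments lay between -0.19 and -0.07 and their groups overlapped. Tead4, at chr6:128174306-128250841 (minus strand, ENSMUSG00000030353), stayed below 1 CPM in every library, with 3 to 21 reads in each retina. It was removed by the filter on low counts with UNC1999 and in sorted rods, as was Tead2 in sorted rods, and passed nowhere.

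Of the coactivators, neither passed the test in any experiment. Wwtr1, at chr3:57259571-57379832 (minus strand, ENSMUSG00000027803), was at 30.3, 38.2 and 29.8 CPM in controls and 44.1, 50.9 and 62.1 CPM with Romidepsin. The treated libraries all lay above the controls, 1.60-fold between means, with a log2 fold change of 0.68 ± 0.16 and an adjusted p of 0.0802. The likelihood ratio test gave 0.00961 and DESeq2 0.0116. In sorted rods the order was the other way round, with Wwtr1 at 61.3 and 74.9 CPM in controls and at 39.3 and 39.0 CPM with GSK2879552. Those groups did not overlap either, and the log2 fold change was -0.80 ± 0.23, with an unadjusted p of 0.00686 and an adjusted p of 0.835. Wwtr1 was also above its controls with UNC0642, at 52.2 and 56.2 against 49.1 and 43.0 CPM (adjusted p = 0.343), whereas with DZNep and UNC1999 the groups overlapped.

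Yap1, at chr9:7931999-8004596 (minus strand, ENSMUSG00000053110), was at 38.4, 44.8 and 40.9 CPM in the controls of the Romidepsin experiment and 34.1, 33.5 and 32.7 CPM in treated retinas. Every treated library lay below every control, with a log2 fold change of -0.31 ± 0.11 and an adjusted p of 0.186. The coactivators thus stood on opposite sides of their controls with Romidepsin, though neither passed. In 7 alternative fits that left out no library, Wwtr1 passed in 5 and Yap1 in 1. In the 6 fits that left out a library neither did. In the other whole-retina experiments the log2 fold changes of Yap1 were -0.19 with DZNep, -0.19 with UNC1999 and 0.01 with UNC0642, with overlapping groups. In sorted rods Yap1 had 2 to 15 reads per library, too few for a difference to be seen, with a 95% interval of the log2 fold change from -2.68 to 2.48.

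Among the targets, Cyr61, at chr3:145309935-145312949 (minus strand, ENSMUSG00000028195), moved furthest. With Romidepsin it was at 9.17, 10.9 and 11.4 CPM in controls and 21.4, 43.9 and 47.2 CPM in treated retinas. The lowest treated library was above the highest control, and the means of 10.5 ± 1.19 and 37.5 ± 14.1 CPM (n = 3 each) were 3.56-fold apart, with a log2 fold change of 1.83 ± 0.28 and an adjusted p of 0.0338. The call was lost without control replicate 1, control replicate 2, control replicate 3 or treated replicate 3, with adjusted p of 0.0626, 0.132, 0.133 and 0.147 and log2 fold changes of 1.74, 1.86, 1.90 and 1.64.

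With UNC1999, Cyr61 was at 10.3, 12.5 and 12.2 CPM in controls and 20.002, 19.1 and 28.4 CPM in treated retinas. These groups did not overlap, and the 1.93-fold difference (log2 0.95 ± 0.17) had an adjusted p of 0.0533. DESeq2 gave 3.0e-05 and the quasi-likelihood test without control replicate 3 gave 0.0141. In sorted rods Cyr61 was at 2.68 and 3.22 CPM in controls and 5.56 and 8.48 CPM with GSK2879552, from 20 to 107 reads, and the log2 fold change of 1.23 ± 0.47 had an adjusted p of 0.987. With DZNep the treated retinas, at 10.7 and 11.02 CPM, lay within the controls, of which replicate 1 was at 23.2 and the other 3 between 8.83 and 11.2 CPM. UNC0642 left Cyr61 at 17.7 and 15.9 CPM against 15.1 and 17.8 CPM.

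Ctgf, at chr10:24315248-24318489 (plus strand, ENSMUSG00000019997), fell with DZNep. It was at 101, 85.2, 81.2 and 92.5 CPM in controls and 59.9 and 65.4 CPM in treated retinas. The groups did not overlap, with means of 89.8 ± 8.51 (n = 4) and 62.6 ± 3.86 CPM (n = 2), a log2 fold change of -0.53 ± 0.09 and an adjusted p of 0.00383. Without treated replicate 1 the adjusted p was 0.0629, in the fit of all 22 retina libraries 0.200, and against the 9 controls of the library series 0.251. The summed markers of Müller glia also fell in these libraries, from 10273 to 10618 CPM in controls to 7226 to 8070 CPM, with 11 of 12 markers passing. Sums also fell for endothelial markers (746 to 794 and 597 to 620 CPM) and for bipolar and amacrine cell markers (3165 to 3549 and 2812 to 2903 CPM). Those of gliosis (739 to 1153 and 645 to 654 CPM) and microglia (249 to 484 and 202 to 224 CPM) were lower too. Sums rose for rods (10859 to 17380 and 29084 to 30059 CPM) and RPE (93.2 to 210 and 264 to 370 CPM). Those of pericytes and smooth muscle overlapped (191 to 224 and 207 to 212 CPM). Lens markers summed to 2.48 to 4.09 CPM in controls but to 2.31 and 80.6 CPM in the 2 treated libraries. The part of any of these cell types in the fall of Ctgf was not tested, and in whole retina fewer cells of a type and less RNA per cell cannot be told apart.

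Ctgf did not pass with Romidepsin, where it was at 93.3, 73.9 and 81.6 CPM in controls and 97.3, 80.6 and 106 CPM in treated retinas (log2 0.19, 95% interval -0.13 to 0.51). With UNC0642 its 2 controls, at 47.9 and 90.8 CPM, were further apart than any other pair of controls of a member in that experiment, and the treated libraries at 52.7 and 56.7 CPM lay between them. Leaving out the lower control gave a log2 fold change of -0.73 with an adjusted p of 0.0181, which thus rests on a single control. Its exons share 570 bases with the antisense lincRNA Gm15270, counted at 57 reads at most in a library, and whether the counting used strand is not given in the sources used here.

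Amotl2, at chr9:102619002-102635748 (plus strand, ENSMUSG00000032531), varied least of the 9 genes for its level across control retinas, between 64.1 and 81.7 CPM in all 12 control retinas. With Romidepsin it was at 74.0, 81.7 and 69.5 CPM in controls and 107, 91.2 and 107 CPM in treated retinas. All treated libraries were above the controls, by 1.36-fold, with a log2 fold change of 0.44 ± 0.12 and an adjusted p of 0.0993 (0.0457 with DESeq2 and 0.00196 in the fit of all 22 retina libraries). In the other 4 experiments the log2 fold changes lay between -0.07 and 0.05 and the groups overlapped.

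Counted over the set, Romidepsin had 2 of 9 members passing, both higher, where 0.748% of the 16049 genes tested passed in either direction and 0.573% were higher. Groups did not overlap for 5 of the 9, among them Yap1 in the lower direction, against 26% of all genes. The median log2 fold change of the members was 0.19, with 5 above 0 and 4 below, against -0.01 over all genes tested. With DZNep 2 of 9 members passed, 1 higher and 1 lower, where 22.7% of 16477 genes did (12.9% higher and 9.72% lower), a share near that of the table as a whole. Groups did not overlap for the same 2 members, against 45.9% of all genes. With UNC1999 0 of the 8 members tested passed, where 0.602% of 15775 genes did and 3728 had an unadjusted p under 0.05, while DESeq2 and the likelihood ratio test each passed 2 members, Cyr61 and Tead2. Groups did not overlap for 2 members, against 27.4% of all genes. With UNC0642 0 of 9 passed, and 0% of all 16321 genes, of which 2407 had an unadjusted p under 0.05. Of the members only Wwtr1 did not overlap, against 52.1% of genes. In sorted rods 0 of the 7 members tested passed and 0% of 14478 genes, with 711 at an unadjusted p under 0.05, and 2 members did not overlap, against 33.2% of genes. DESeq2 and the likelihood ratio test also passed 0 members in these last 2 experiments. Since the members were chosen with results known, these shares are a description.

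**Figure D4:**
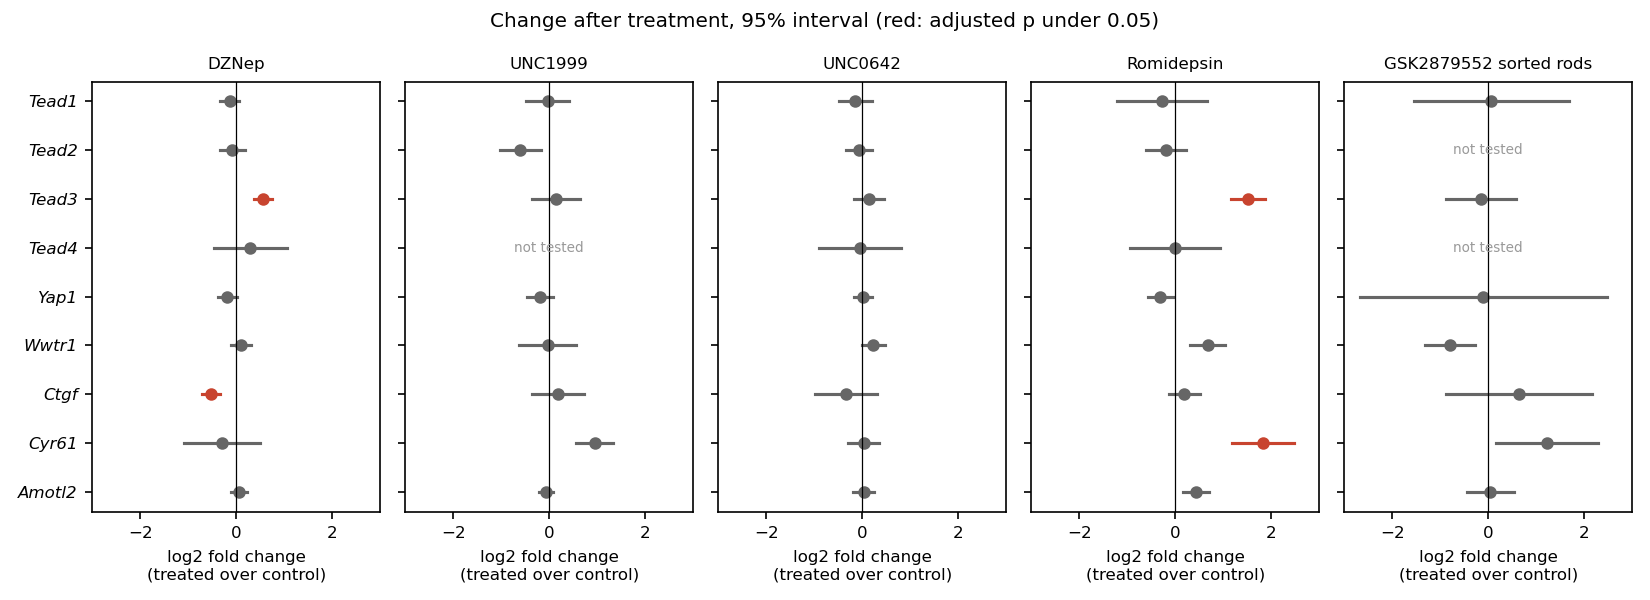
Log2 fold change of treated over control (horizontal axes) of the 9 genes in the 5 experiments, with 95% intervals; red marks an adjusted p under 0.05 over all genes tested, and genes removed by the filter on low counts are marked as not tested. Tead3 at 1.52 and Cyr61 at 1.83 passed with Romidepsin, and Tead3 at 0.55 and Ctgf at -0.53 with DZNep.

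Other cell types moved with the same treatments. In the Romidepsin experiment the summed markers of Müller glia were at 9842 to 11719 CPM in controls and 6767 to 7912 CPM in treated retinas, with 0 of 12 passing alone, and those of RPE at 132 to 151 and 76.2 to 92.8 CPM, also with 0 of 12 passing. The summed rod markers were at 9496 to 15447 and 12977 to 18158 CPM, also with 0 of 11 passing. The gliosis markers were at 896 to 1858 and 1635 to 2100.07 CPM in sum, 11 of 12 with a fold change above 0 and a median log2 of 0.72, and 1 passed, Socs3, an inhibitor of cytokine signalling, with a log2 fold change of 2.79. Of the bipolar and amacrine cell markers all 12 had a log2 fold change below 0, with sums of 3236 to 3626 and 2275 to 2678 CPM and 1 passing. Endothelial markers summed to 789 to 989 and 665 to 680 CPM, with 0 of 10 passing. The sum did not speak for the list, as 6 of the 10 had a log2 fold change above 0 and 4 below, with a median of 0.08. Microglial markers summed to 471 to 760 and 397 to 550 CPM, with 1 of 12 passing, lower. With DZNep all 11 rod markers passed as higher (10859 to 17380 CPM in controls, 29084 to 30059 CPM in treated retinas). So did 7 of 12 RPE markers, where 12.9% of all genes passed as higher. With UNC1999 8 of 12 RPE markers passed as higher (137 to 169 and 436 to 513 CPM), where 0.602% of all genes passed in either direction. RPE markers with a log2 fold change above 0 were 11 of 12 with DZNep and 12 of 12 with UNC1999. In sorted rods the Müller sum was 334 and 470 CPM in controls and 549 and 571 CPM with GSK2879552. Gliosis markers summed to 393 and 516 CPM in controls and 260 and 291 CPM in treated rods. Endothelial markers summed to 51.4 and 56.0 CPM in controls and 69.9 and 74.1 CPM in treated rods. Those of pericytes and smooth muscle summed to 11.8 and 16.3 CPM in controls and 17.3 and 27.3 CPM in treated rods. In these lists 0 markers passed. The part of these cell types in the members' values was not tested.

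Whether the treatments differed in their effect on a member was tested in a single fit of all 22 retina libraries, for 6 pairs of treatments and 54 combinations of member and pair, as each treatment was given, at its own dose and schedule. The UNC1999 libraries formed library series H-50 and those of the other retina treatments series G-981. Each effect was taken within its series, but a difference that involves UNC1999 cannot be told apart from one between series. Of the 54 combinations, 2 passed. Tead3 changed less with UNC1999 (log2 0.15) than with Romidepsin (1.53), a difference of -1.38 ± 0.25 with an adjusted p of 0.00630. Amotl2 also differed between them, at -0.06 with UNC1999 and 0.45 with Romidepsin (difference -0.51 ± 0.12, adjusted p = 0.0196), where 5.11% of all 17274 genes passed. For the other pairs that share was 0.289% for DZNep less Romidepsin, 0.0174% for UNC0642 less Romidepsin, 0.0232% for DZNep less UNC0642 and 0.0116% for UNC1999 less UNC0642. Amotl2 lost the call in several fits that left out 1 library, among them that without control replicate 3 of the Romidepsin experiment (adjusted p = 0.0505) and that without treated replicate 3 of UNC1999 (0.0611). It also lost the call in the fit with a block for replicate number (0.114).

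Cyr61 differed by -2.13 between DZNep and Romidepsin (adjusted p = 0.0520) and Tead3 by -1.39 between UNC0642 and Romidepsin (adjusted p = 0.0615), neither passing. Both EZH2 inhibitors could be set side by side, though their libraries belonged to different series. For Tead3 DZNep less UNC1999 was 0.42 with a 95% interval from -0.12 to 0.95, for Cyr61 it was -1.24 (-2.18 to -0.30, adjusted p = 0.392) and for Ctgf -0.70 (-1.37 to -0.04, adjusted p = 0.496). No member passed for this pair, where 0.00579% of all genes did, and these intervals, over 1 log2 unit wide, do not show that the inhibitors acted alike.

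The wider pathway was read from 42 further genes: 20 Hippo kinases and upstream regulators, 4 Vestigial-like cofactors that compete with YAP for TEAD, and 20 other targets, with 2 genes in more than 1 list. With DZNep 12 of the 39 tested passed, 7 higher and 5 lower, where 22.7% of all genes did (12.9% higher and 9.72% lower), and their median log2 fold change was -0.13, against 0.00 over all genes tested. Among the regulators 4 rose and 1 fell. Taok3, a kinase upstream of the Hippo kinases, rose with a log2 fold change of 0.73 (105 ± 6.66 to 174 ± 5.91 CPM, adjusted p = 0.000397). Among the 20 targets, 3 rose and 3 fell. Nt5e, which encodes CD73, also known as a surface protein of rods, rose from 70.6 ± 15.7 to 157 ± 9.39 CPM (log2 1.16, adjusted p = 0.00193). Igfbp3, which binds insulin-like growth factors, rose from 2.72 ± 0.377 to 6.69 ± 1.88 CPM (log2 1.33, adjusted p = 0.00234).

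The lower ones had smaller changes. Arhgef17, which encodes a guanine nucleotide exchange factor, fell from 313 ± 19.6 to 255 ± 1.09 CPM (log2 -0.29, adjusted p = 0.0112). Myof, which encodes the membrane protein myoferlin, was lower by a log2 of -0.44 (adjusted p = 0.0173) and Fjx1 by -0.43 (adjusted p = 0.0211), and of the cofactors Vgll4 fell (log2 -0.33, adjusted p = 0.0227). The called targets thus went both ways with DZNep.

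With Romidepsin 1 of 39 passed, where 0.748% of all genes did and 0.573% rose. Igfbp3 rose from 3.32 ± 0.451 to 14.7 ± 7.11 CPM (n = 3 each), a log2 fold change of 2.14 ± 0.34 with an adjusted p of 0.0362. Its controls lay between 2.81 and 3.63 CPM and its treated libraries between 8.94 and 22.6 CPM, with no overlap. The other 18 targets tested did not pass. With UNC1999 and UNC0642 0 of 39 passed and in sorted rods 0 of 31, where 0.602%, 0% and 0% of all genes did, and their median log2 fold changes were -0.06, -0.04 and 0.26, against 0.00, 0.00 and -0.01 over all genes tested.

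The genes most like a member in each role were sought over the 22 retina libraries, as Pearson's r of log2 CPM less the mean of the controls of the same experiment, among 14945 genes with a mean of at least 1 CPM. The libraries share these controls and the treated replicate with low long genes, and r is given as a description. For Tead1 these were Nav3 (r = 0.940, Spearman's rho = 0.782), Fndc3b (0.938 and 0.808) and Usp24 (0.927 and 0.881). For Yap1 they were Arf4 (0.824 and 0.825), Rgs19 (0.813 and 0.740) and Wwc1 (0.801 and 0.670), the last of which encodes KIBRA, an upstream regulator of the Hippo kinases. For Ctgf they were Gm11734 (0.815 and 0.825), Gsg1l (0.810 and 0.790) and Ndrg2 (0.796 and 0.816).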

How the data were processed

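RNA-seq libraries of rd10 mouse retina (22) and sorted rods (4) were analysed. According to the authors, reads were aligned to NCBIM37 with HISAT2 2.2.1 and counted with HTSeq 0.11.2; the deposited values are raw counts of reads per Ensembl gene, and the strand setting is not given in the sources used here. Groups came from the sample titles, because the genotype and treatment labels of some libraries run on in number (Jrd11 to Jrd21, UNC2000, UNC2001). Labels call replicates biological; mice per library are not given.

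Symbols, positions and exon lengths were taken from GENCODE M1 (NCBIM37) for 37205 of 37991 genes. Each treatment was compared with its own controls in edgeR 4.0.16 (R 4.3.3): filterByExpr, TMM, quasi-likelihood test, Benjamini-Hochberg adjustment over all genes tested, passed at adjusted p under 0.05, two-sided. The study's likelihood ratio test and its absolute log2 fold change over 1 were alternatives, as were DESeq2 1.42.0, other scaling, no filter, a replicate block, a fit of 22 libraries, all 9 control retinas of the same library series and leaving out each library. CPM values carry counting error beside animal differences. Scripts were tested on simulated data. No 2 replicates were copies of each other (23 pairs, chi-square per gene at least 3.89).

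The rod marker list was reduced to 11 genes; 1 further marker is not reported here. Members and gene lists were chosen with earlier results of these data known. Named beside the members are the 3 pathway genes with the smallest p in each direction among those that passed in a comparison, and the 3 genes most like Tead1, Yap1 and Ctgf; Vgll4 and Socs3 were named after their values were seen. Replicate numbers did not pair the libraries: the correlation of deviations of same-numbered libraries ran from -0.395 to 0.289. RefSeq promoters are on GRCm38.p6, another build than the counts, and were matched by symbol.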

Additional observations from a re-analysis of the deposited data

Results flagged for a closer look

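In groups of 4 to 10 libraries, 9 combinations of member and group were checked for a library whose gap to its nearest neighbour, over the range of the group, passed Dixon's critical value of 0.829, and 2 were found; chance gives about 1 in 20 groups. Cyr61 in DZNep control replicate 1 was at 23.2 CPM, far from the other 3 controls (gap over range 0.838). Without that library the log2 fold change of Cyr61 with DZNep was 0.10 in place of -0.30. Tead4 in DZNep control replicate 2 was at 0.368 CPM, from 8 reads, just past the critical value, below the other 3 controls.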

How the results depend on the processing

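Depth limits Tead4 in retina (3 to 21 reads) and Yap1 and Tead2 in sorted rods (under 16 reads), and 2 to 4 libraries per group limit every comparison. The numbers of members that passed moved with the test. With DZNep 2 members became 0 with the fold threshold of the study, 0 in the fit of 22 retina libraries and 0 against 9 control retinas, and 1 to 3 when a library was left out. With UNC1999 0 became 2 with the likelihood ratio test, 2 with DESeq2, 1 with no filter and 1 in the fit of 22 libraries, and 0 to 2 with a library left out, the 2 without control replicate 3. With Romidepsin 2 became 4 with the likelihood ratio test, DESeq2 or the 9 controls and 5 in the fit of 22 libraries, and 0 to 2 with a library left out: 0 without control replicate 2, control replicate 3 or treated replicate 3, and 1 without control replicate 1. With UNC0642 0 became 0 to 1, the 1 without control replicate 1. Differences between treatments, 2 in all, became 6 with the likelihood ratio test, 4 with no filter, 1 with the replicate block (Amotl2 for UNC1999 less Romidepsin had an adjusted p of 0.114 there) and 1 to 6 with a library left out, the 6 without Romidepsin treated replicate 1 and 5 without UNC1999 treated replicate 1.

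Of the other pathway genes, the 12 that passed with DZNep became 6 with the replicate block, 2 with the fold threshold, 6 in the fit of 22 libraries, 7 against the 9 controls and 4 to 17 with a library left out, the 4 without treated replicate 1 and the 17 without control replicate 1. With UNC1999 0 became 5 with the likelihood ratio test, 4 with DESeq2, 4 with no filter, 6 in the fit of 22 libraries and 0 to 9 with a library left out, the 9 without control replicate 3. With UNC0642 0 became 1 with no filter, 1 with the replicate block and 3 against the 9 controls. With Romidepsin 1 became 4 with the likelihood ratio test, 3 with DESeq2, 2 with no filter, 6 in the fit of 22 libraries, 5 against the 9 controls and 0 to 2 with a library left out, the 0 without any 1 control or treated replicate 3. In sorted rods 0 became 1 with no filter and 0 to 2 with a library left out. The cause of these moves was not tested.

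Signs turned only for members that had not passed. Against the 9 controls, Wwtr1 with DZNep went to -0.13 and Tead1, Tead2 and Tead4 with UNC0642 to 0.0801, 0.231 and 0.388. Tead4 with Romidepsin went to 0.0026 with no filter and 0.0015 in the fit of 22 libraries, and Yap1 in sorted rods to 0.019 with DESeq2. With a library left out, the log2 fold changes with DZNep ran from -0.45 to 0.10 for Cyr61, from -0.18 to 0.0382 for Tead2 and from -0.0563 to 0.17 for Amotl2. With UNC1999 they ran from -0.17 to 0.14 for Tead1, from -0.19 to 0.24 for Wwtr1, from -0.0469 to 0.33 for Ctgf and from -0.0622 to 0.36 for Tead3. With UNC0642 they ran from -0.38 to 0.0482 for Tead1, from -0.16 to 0.0181 for Tead2, from -0.14 to 0.0456 for Tead4, from -0.0853 to 0.15 for Cyr61, from -0.0423 to 0.12 for Amotl2, from -0.0188 to 0.0384 for Yap1, from -0.73 to 0.19 for Ctgf and from -0.0410 to 0.30 for Tead3. With Romidepsin they ran from -0.27 to 0.25 for Tead4 and from -0.67 to 0.0884 for Tead1. In sorted rods they ran from -1.50 to 1.07 for Yap1, from -0.50 to 0.51 for Tead1, from -0.35 to 0.0692 for Tead3 and from -0.0580 to 0.16 for Amotl2.

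Replicate numbers were shared between groups but were not used to pair the libraries. In the UNC1999 and Romidepsin experiments 2 of 6 libraries correlated best with their own number. In the UNC0642 experiment the correlation of same-numbered libraries was 0.229, and whether its libraries were paired is not settled. With the replicate block, genes passing over the whole table went from 3734 to 1415 with DZNep, 95 to 30 with UNC1999, 0 to 589 with UNC0642, 120 to 97 with Romidepsin and 0 to 3 in sorted rods, and no member's call changed within a comparison with its own controls. In sorted rods the correlation of same-numbered libraries was -0.113, and the crossed pairing, chosen after seeing the data, passed 0 members and 0 other pathway genes and put Tead1 at -0.0128.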
